A study of Mus musculus with 33 samples.

Results

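The ΔK9.1 clone of mouse embryonic stem cells (ESCs) was compared with itself before and after 4 days of embryoid body (EB) differentiation. The comparison holds 6 of the 33 RNA-seq libraries of the series: 3 undifferentiated (day 0) and 3 from EBs on day 4. The libraries were taken by their labels, and every gene listed for them was examined. ΔK9.1 derives from the E14Tg2a line (129/Ola strain) and carries on both alleles a Crispr/Cas9 deletion between the *Nanog* enhancer and promoter, where H3K9me3 is found in wild-type ESCs. The parental E14Tg2a line and a further clone of the same deletion, ΔK9.2, were differentiated alongside, which allows the change in ΔK9.1 to be set against theirs. On day 0 the cells grew attached to gelatine in serum with LIF. By day 4 they had been aggregated in non-adherent dishes in serum without LIF, so removal of LIF, aggregation and time in culture cannot be told apart. ΔK9.1 is 1 clone, and its replicates come from separate differentiation assays, in each of which the lines were run side by side, so that p-values measure the spread between assays of this clone only.

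ESCs in serum and LIF self-renew but are heterogeneous, and the paper describes a subpopulation with little or no NANOG. Naive pluripotency depends on POU5F1 (OCT4), SOX2 and NANOG together with auxiliary factors such as ESRRB, KLF4 and TFCP2L1. LIF acts through its receptor, JAK kinases and the transcription factor STAT3, which activates several of these auxiliary genes. When LIF is withdrawn and FGF-ERK signalling prevails, ESCs leave the naive state and pass through a formative, epiblast-like state marked by FGF5, OTX2 and the de novo DNA methyltransferases, from which the germ layers arise.

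Between day 0 and day 4 in ΔK9.1, 8 of 15 LIF-STAT3 genes and 14 of 22 naive pluripotency genes fell, 12 of 24 formative epiblast genes rose, and the values of *Pou5f1* overlapped between the days. The lists were chosen with earlier results of these data known and share members such as *Klf4*, so their counts are descriptions. Of 16336 listed genes, 14101 had a mean of at least 1 TPM (transcripts scaled for length and to a fixed total per library) on 1 of the days and were tested with limma on log2(TPM + 1). A gene was called where its adjusted p was under 0.05 and its log2 fold change exceeded 1 in either direction. By this rule 232 genes (1.65% of those tested) were called higher and 682 (4.84%) lower on day 4, and in 905 of these 914 genes (6.48%) the libraries of the 2 days did not overlap. An adjusted p under 0.05 at any fold was reached by 6.28% upwards and 31.3% downwards. Non-overlap alone was common, since 9.57% of the genes tested were higher and 42.6% lower in all 3 day 4 libraries than in any day 0 library.

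**Figure D1:**
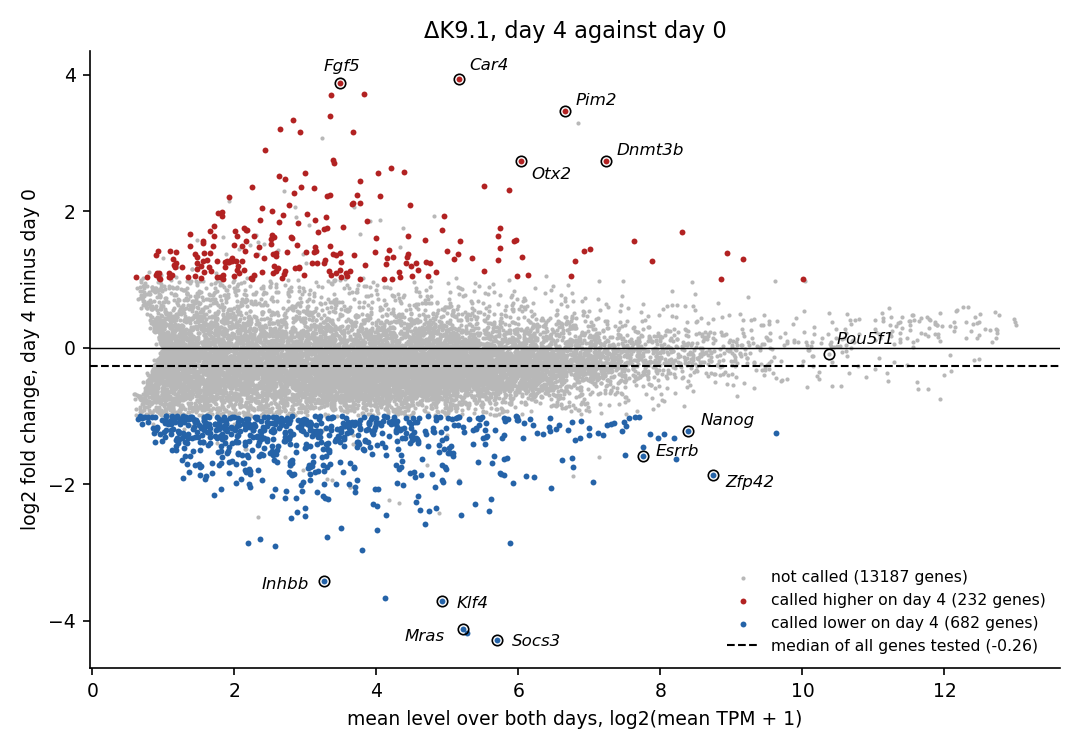
Each point is 1 of the genes tested in ΔK9.1: the x axis is the log2 of its mean TPM over both days plus 1, and the y axis is its log2 fold change (day 4 minus day 0). Red and blue points are the 232 genes called higher and the 682 called lower. The dashed line, at -0.26, marks the median of all genes, and named genes are circled.

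The median log2 fold change of all genes tested was -0.26, and 74.2% of them had a negative value. TPM are shares of a fixed total. The 87 genes with symbols of cytosolic ribosomal proteins, a group added after the values were seen in which 5 are annotated as pseudogenes, made up 25.6%, 25.2% and 25.6% of the TPM on day 0 and 30.8%, 31.1% and 33% on day 4. When the libraries were rescaled by the median of their gene-wise ratios, the median change became -0.01, and 392 genes (2.79%) were called higher and 365 (2.6%) lower in place of 232 and 682. All 232 higher calls and 365 of the lower calls held on both scales. Counts of called list members below stand against the 1.65% higher and 4.84% lower of all genes. Each call of day 4 against day 0 in ΔK9.1 below is given on the TPM scale and, where it was lost on the rescaled scale, this is said beside it.

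Pearson's correlations between log2 levels ran from 0.9796 to 0.9829 within day 0, from 0.9772 to 0.9843 within day 4, and from 0.9521 to 0.9609 between the days. Between 12903 and 13670 genes reached 1 TPM per library, fewer on day 4 (at most 13251) than on day 0 (at least 13433), and mitochondrially encoded genes took 3.33% to 3.83% of the TPM on day 0 and 2.57% to 2.99% on day 4.

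*Nanog*, next to which the deletion lies (chr6:122707489-122714633, plus strand, mm10), was read at 456, 460.4 and 486 TPM on day 0 and 184, 213 and 205 TPM on day 4. The groups lay far apart, and *Nanog* fell, with a log2 fold change of -1.22 ± 0.08 (SE, adjusted p = 0.000127). On the rescaled scale the change was -0.94, just short of the threshold for a call. *Nanog* thus remained at well over 100 TPM in all day 4 libraries. In bulk RNA, fewer expressing cells and less RNA per cell cannot be told apart. These gene-level values do not measure the deleted segment, so they are no check of the deletion.

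The 250 bases before the *Nanog* start are shown because they hold the composite element that OCT4 and SOX2 are known to bind together, and both factors' genes were measured here. The reference sequence (RefSeq, GRCm38.p6, chr6:122707239-122707488, plus strand) is printed 5′ to 3′, with the match to TTTGCAT, any base and ACAA in capitals. The match lies 75 to 64 bases before the start.

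Nanog: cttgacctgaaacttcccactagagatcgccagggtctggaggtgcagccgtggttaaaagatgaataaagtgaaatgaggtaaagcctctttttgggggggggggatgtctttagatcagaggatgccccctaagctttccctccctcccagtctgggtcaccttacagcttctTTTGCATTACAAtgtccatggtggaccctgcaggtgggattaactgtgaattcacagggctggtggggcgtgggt

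This 12-letter motif, searched on both strands, occurred in 11 of 32851 such reference windows (0.0335%). Of the 14 pluripotency core genes with a window in the table, *Nanog* alone held it. How the window lies relative to the ends of the deletion was not examined here.

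Of 5 neighbours of *Nanog* on chromosome 6, 1 was called. *Apobec1*, a cytidine deaminase gene (chr6:122577792-122602444), fell from 11.3, 9.04 and 9.11 TPM to 2.69, 2.36 and 3.23 TPM, a change of -1.52 ± 0.16 (SE, adjusted p = 0.000595) that was also called after rescaling (-1.29). *Dppa3*, which encodes the maternal factor STELLA, measured 40.2, 41.7 and 38.6 TPM on day 0 and 61.1, 63.6 and 64.9 TPM on day 4, a difference of 0.64 (adjusted p = 0.00156) that stayed under the fold threshold although every day 4 library was higher. *Gdf3*, a TGF-beta family ligand gene, went the other way and measured 37.8, 40.6 and 37.4 TPM on day 0 and 23.9, 22.9 and 24.9 TPM on day 4, a difference of -0.67 (adjusted p = 0.00196). For the glucose transporter gene *Slc2a3* the days overlapped (719, 669 and 545 TPM on day 0 and 593, 497 and 564 TPM on day 4), and the estimate was -0.22 (adjusted p = 0.176) on the TPM scale and 0.06 after rescaling. *Foxj2*, a forkhead factor gene, was at 3.18, 3.46 and 2.84 TPM on day 0 and 2.500, 2.23 and 2.38 TPM on day 4 (-0.302, adjusted p = 0.143).

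Of 16 genes chosen as LIF receptor, JAK-STAT components and STAT3 targets, 15 were tested, 8 were called lower and none higher, against 4.84% of all genes lower. The 8 calls also held after rescaling, and the list's median was -1.27 (-1.01 rescaled) beside -0.26 for all genes. *Socs3*, the feedback inhibitor that STAT3 induces, was at 112, 97.7 and 84.5 TPM on day 0 and 4.32, 4.14 and 3.77 TPM on day 4. Its change was -4.28 ± 0.13 (SE, adjusted p = 6.12e-06), with little spread on either day. That was the largest fall named here on the log2(TPM + 1) scale, and with a pseudocount of 0.1 it was -4.55, beside -4.56 for *Inhbb* and -4.74 for *Gm27624*.

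The reference bases before the RefSeq start of *Socs3* (GRCm38.p6, chr11:117969367-117969616, minus strand) are shown because *Socs3* led the falls, with the match to the STAT motif TTCNNNGAA in capitals.

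Socs3: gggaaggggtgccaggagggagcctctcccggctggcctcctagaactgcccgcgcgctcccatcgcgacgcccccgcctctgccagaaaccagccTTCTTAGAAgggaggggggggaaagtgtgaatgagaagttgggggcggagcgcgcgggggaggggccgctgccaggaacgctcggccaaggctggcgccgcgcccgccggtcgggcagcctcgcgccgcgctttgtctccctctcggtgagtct

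The match, TTCTTAGAA, lies 154 to 146 bases before the RefSeq start. The GENCODE gene (chr11:117966079-117970047) begins farther upstream, so that the window lies inside it. The motif was searched on both strands in the same windows and is frequent: 2306 of 32851 windows (7.02%) hold it, and of the 15 LIF-STAT3 genes with a window only *Socs3* did.

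Among the components, *Stat3* itself measured 36.9, 34.1 and 29.6 TPM on day 0 and 11.6, 7.21 and 7.62 TPM on day 4 with a change of -1.83 ± 0.18 (SE, adjusted p = 0.000488). *Jak3*, a JAK kinase gene, went from 18.2, 20.2 and 10.8 TPM to 3.12, 3.33 and 3.26 TPM (-1.995). *Lifr*, the LIF receptor gene, fell from 28.02, 22.01 and 13.4 TPM to 9.06, 6.799 and 7.79 TPM (-1.27, adjusted p = 0.00649), whereas its partner *Il6st* (gp130) did not pass (-0.46, adjusted p = 0.076). The targets *Bcl3*, an IkappaB family gene (-2.96), and *Gbx2*, a homeobox gene (-2.203), were down, and so were *Klf4* and *Tfcp2l1*, which are described with the naive genes. *Junb* (-0.895, adjusted p = 0.00239) and the kinase gene *Pim1* (-0.75, adjusted p = 0.00596) were lower in every day 4 library but under the fold threshold.

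**Figure D2:**
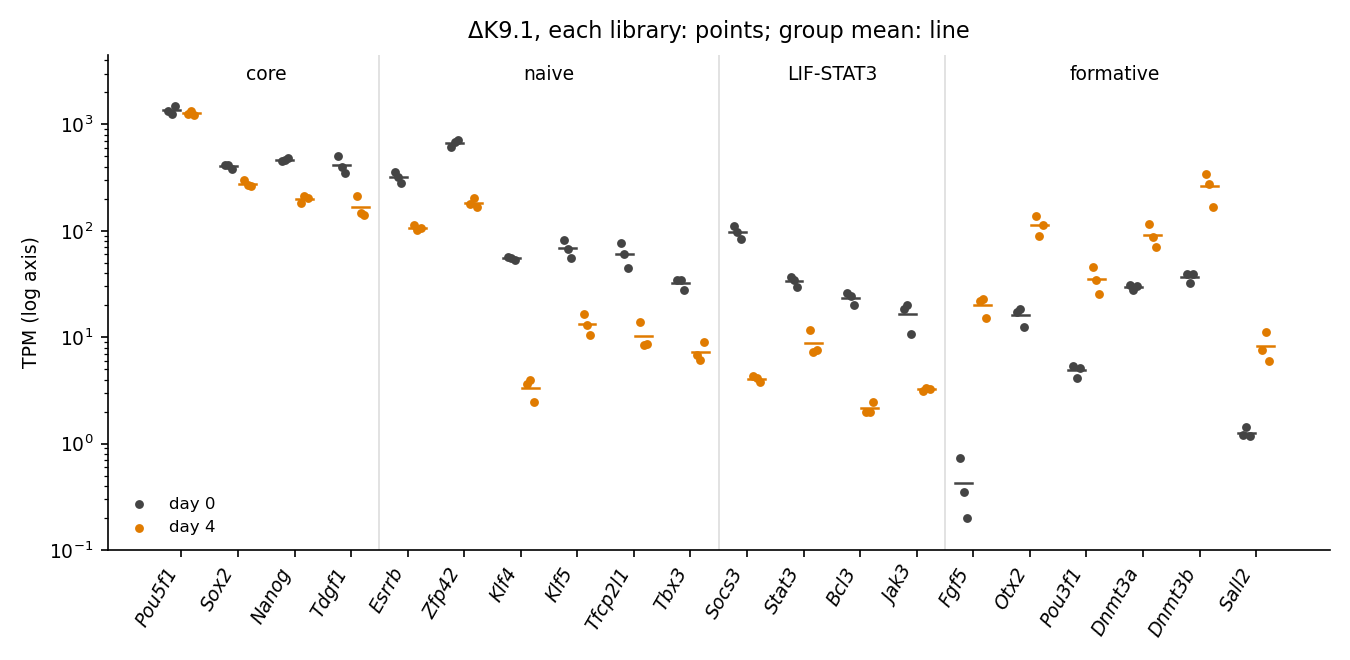
TPM on a log axis for 20 genes in the 6 ΔK9.1 libraries: grey points are day 0, orange points day 4, and the short lines are group means. *Socs3* dropped from between 84.5 and 112 TPM to about 4 TPM, *Fgf5* and *Otx2* rose, and the 2 days overlap for *Pou5f1* alone.

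Most core pluripotency genes were not called. Of 20 core genes, which were all tested, *Nanog* and *Tdgf1* (the Nodal co-receptor CRIPTO) were called lower and none higher, with a list median of -0.51 (-0.24 rescaled). *Pou5f1*, which encodes OCT4, measured 1336, 1264 and 1500.3 TPM on day 0 and 1250.2, 1346 and 1226 TPM on day 4. Its days overlapped, and the estimate of -0.099 (adjusted p = 0.397) turned to 0.18 after rescaling. *Sox2* was at 419, 417 and 380.3 TPM on day 0 and 302, 269 and 263 TPM on day 4, lower in every day 4 library (-0.55, adjusted p = 0.00322) and under the fold threshold on both scales (-0.26 rescaled). *Tdgf1* fell from 508, 395 and 348 TPM to 214, 146 and 140.03 TPM, a change of -1.32 ± 0.19 (SE, adjusted p = 0.00209). *Sall4*, a zinc finger factor gene, had a difference of -0.38 (adjusted p = 0.0141). *Utf1*, a chromatin factor gene of pluripotent cells, was higher in every day 4 library, from 221, 198 and 199.6 TPM to 369, 353 and 377 TPM. That was 0.83 (adjusted p = 0.000438) on the TPM scale and 1.11 after rescaling, where it was called.

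Most naive pluripotency genes fell. All 22 genes of the list were tested, 14 were called lower (4.84% of all genes were) and none higher (1.65%), and the median was -1.42 (-1.17 rescaled). 12 of the 14 calls held after rescaling, the exceptions being *Nr0b1* (DAX1; -1.098, -0.82 rescaled) and *Nr5a2* (LRH-1; -1.24, -0.98 rescaled). The call of *Nr0b1* was also lost without day 0 replicate 3 (-0.93).

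The deepest fall of the list was in *Klf4*, a Krüppel-like factor gene with 56.97, 55.9 and 53.4 TPM on day 0 and 3.64, 3.96 and 2.44 TPM on day 4, a change of -3.71 ± 0.15 (SE, adjusted p = 2.17e-05). *Klf5* of the same family fell from 82.4, 67.1 and 56.01 TPM to 16.5, 12.9 and 10.5 TPM (-2.29), while *Klf2* remained at 144, 136 and 137 TPM and stayed under the fold threshold (-0.93, adjusted p = 0.000228). The libraries of the 2 days were apart for all 3 Krüppel-like factors.

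*Tfcp2l1*, a Grainyhead-family factor gene, was at 77.5, 60.1 and 45.04 TPM on day 0 and 13.97, 8.38 and 8.63 TPM on day 4 (-2.45). *Esrrb*, an orphan nuclear receptor gene, fell from 358, 323 and 284 TPM to 113, 101 and 105 TPM (-1.58), and *Tbx3*, a T-box gene, from 34.5, 34.3 and 28.01 TPM to 6.82, 6.08 and 8.96 TPM (-2.01). Levels thus differed among these regulators: *Esrrb* was still near 100 TPM on day 4, whereas *Klf4* was under 4 TPM. *Zfp42* (REX1), a marker rather than a regulator of the state, measured 614, 687 and 706 TPM on day 0 and 178, 205 and 169 TPM on day 4 (-1.86). *Prdm14*, a repressor of epiblast genes, changed by -1.28, *Tcl1*, an AKT co-activator gene, by -1.89, *Spp1* (osteopontin) by -1.64 and the junctional adhesion gene *Jam2* by -2.38.

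*Zfp57*, a zinc finger gene whose protein binds methylated DNA at imprinted loci, was at 214, 207 and 212 TPM on day 0 and 57.7, 58.4 and 44.6 TPM on day 4, a change of -1.97 ± 0.11 (SE, adjusted p = 6.56e-05). Of the naive genes that were not called, *Fgf4* (-0.73, adjusted p = 0.00525) was lower in all day 4 libraries. *Dppa5a*, by far the most abundant member, measured 5494, 4355 and 4098 TPM on day 0 and 4113, 3576 and 2884 TPM on day 4 and did not pass (-0.403, adjusted p = 0.0706).

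Many formative and primed epiblast genes rose. Of 25 listed, 24 were tested, 12 were called higher against 1.65% of all genes, and 1 lower. The median was 1.06 (1.30 rescaled), and 16 were called higher after rescaling. *Fgf5*, a secreted growth factor gene and marker of the post-implantation epiblast (chr5:98254184-98277030), went from 0.734, 0.351 and 0.199 TPM to 22.1, 22.9 and 15.04 TPM. This was a rise of 3.87 ± 0.21 (SE, adjusted p = 5.67e-05) from a level that was under 1 TPM in each day 0 library.

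*Otx2*, the homeobox gene that directs OCT4 to formative enhancers, measured 17.3, 18.3 and 12.5 TPM on day 0 and 138, 89.1 and 114 TPM on day 4 and rose by 2.74 ± 0.19 (SE, adjusted p = 0.000127). *Pou3f1* (OCT6), a POU factor gene of the epiblast, rose from 5.42, 4.12 and 5.13 TPM to 45.4, 34.4 and 25.2 TPM (2.58). *Car4*, which encodes a carbonic anhydrase, had the largest rise of the list on the log2(TPM + 1) scale, from 4.56, 3.28 and 2.32 TPM to 88.9, 56.1 and 54.5 TPM (3.94), while *Fgf5* rose more with a pseudocount of 0.1 (5.36 against 4.27). In each of these 3 genes the lowest day 4 library was above 4 times the highest day 0 library.

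The zinc finger genes *Sall2* (1.998) and *Zic2* (1.42), the SOX factor genes *Sox3* (1.62) and *Sox11* (1.12), the WNT effector gene *Lef1* (1.76) and the secreted WNT modulator gene *Sfrp2* (1.195) rose as well. Several of these were still low on day 4: *Sox3* stood at 6.66, 10.5 and 6.495 TPM, *Sall2* at 7.63, 11.3 and 5.95 TPM and *Sox11* at 7.88, 7.56 and 6.23 TPM. The single lower call of the list was *Etv4*, an ETS factor gene and ERK target, which fell from 48.3, 41.6 and 53.3 TPM to 12.9, 21.9 and 13.4 TPM (-1.55).

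Of 13 genes of DNA methylation and demethylation tested, 2 rose (1.65% of all genes did), 4 fell (4.84%, and 3 rescaled) and 7 were not called. The de novo methyltransferase gene *Dnmt3b* measured 39.5, 32.5 and 39.01 TPM on day 0 and 343, 276 and 167 TPM on day 4, a rise of 2.73 ± 0.23 (SE, adjusted p = 0.000265). *Dnmt3a* rose from 30.9, 28.03 and 30.03 TPM to 115, 87.7 and 70.3 TPM (1.56). In both genes the day 4 libraries were ordered alike, with replicate 1 highest and replicate 3 lowest. Their co-factor gene *Dnmt3l* did not pass (-0.23, adjusted p = 0.178, and 0.05 rescaled).

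The dioxygenase gene *Tet2*, which acts on 5-methylcytosine, fell from 30.1, 21.8 and 23.3 TPM to 10.8, 7.28 and 5.81 TPM (-1.56), and its relative *Tet1* from 138, 112 and 94.04 TPM to 47.8, 40.3 and 51.6 TPM (-1.27, -0.99 rescaled and then not called). The maintenance methyltransferase gene *Dnmt1* (-0.62, adjusted p = 0.00599) and *Uhrf1*, which recruits it (-0.43, adjusted p = 0.0135), stayed under the fold threshold. *Apobec1* and *Zfp57* were called lower as well.

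**Figure D3:**
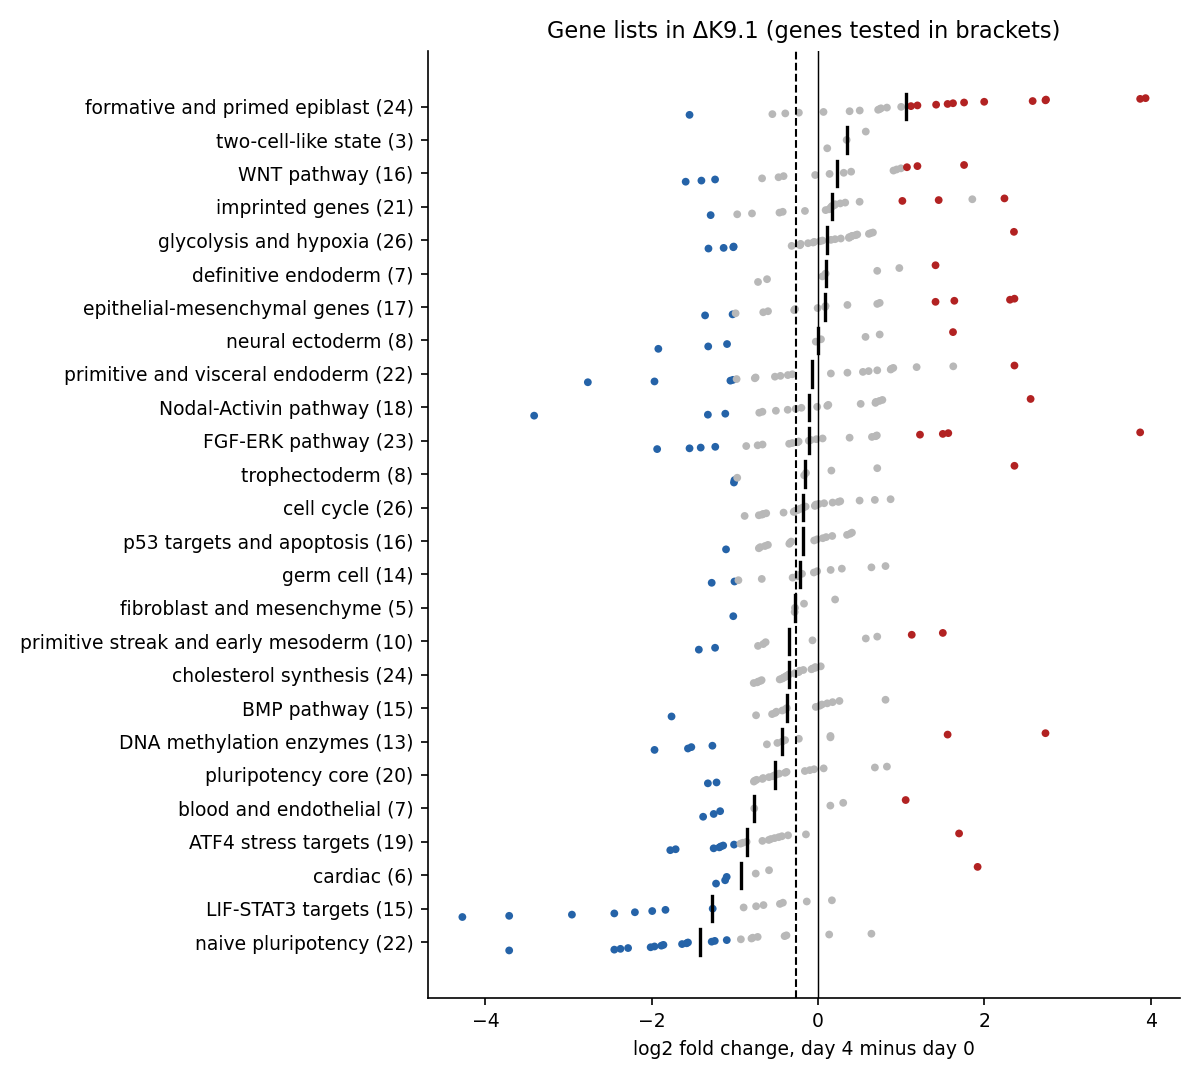
Log2 fold change (day 4 minus day 0) of each tested gene in ΔK9.1, by list, with the number tested in brackets. Red points were called higher, blue points lower and grey points neither. Black bars are list medians, from -1.42 (naive pluripotency) to 1.06 (formative and primed epiblast), and the dashed line is the median of all genes, -0.26.

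Of 23 FGF-ERK genes tested, 4 were called higher and 4 lower (4 and 3 rescaled), with a median of -0.11 (0.16 rescaled). Among the ligands, *Fgf5* and *Fgf8* (1.18, 0.791 and 1.09 TPM to 3.13, 7.23 and 4.45 TPM, 1.5) rose and *Fgf17* fell (11.8, 12.1 and 12.6 TPM to 1.96, 2.33 and 3.15 TPM, -1.94). Among feedback inhibitors and phosphatases of the pathway, *Spry1* (1.23) and *Dusp4* (1.57) rose, and *Spry4* fell (-1.24, -0.97 rescaled and then not called). Another phosphatase gene, *Dusp6*, stayed under the fold threshold (0.65, adjusted p = 0.0242). The immediate early gene *Egr1* fell from a variable 9.898, 6.95 and 15.5 TPM to 3.57, 4.55 and 1.99 TPM (-1.41). *Myc* did not pass, at 6.57, 7.08 and 6.41 TPM on day 0 and 7.22, 7.43 and 5.27 TPM on day 4 (-0.02, adjusted p = 0.924).

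In the Nodal-Activin pathway 18 genes were tested, with 1 called higher and 3 lower (3 and 2 rescaled) and a median of -0.11 (0.15 rescaled). *Inhbb*, a subunit gene of activin B, fell from 20.5, 15.1 and 13.9 TPM to 0.837, 0.769 and 0.307 TPM (-3.41 ± 0.204 SE, adjusted p = 6.56e-05). The ligand gene *Nodal* was at 35.2, 35.2 and 30.6 TPM on day 0 and 25.9, 32.2 and 25.5 TPM on day 4 (-0.27, adjusted p = 0.114, and 0.00361 rescaled). Its antagonist genes *Lefty1* (0.69, adjusted p = 0.00273) and *Lefty2* (0.695, adjusted p = 0.00421) were higher in every day 4 library without reaching the fold threshold on either scale. *Smad7*, an inhibitory SMAD gene, fell (-1.12, -0.85 rescaled and then not called).

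*Bmp4* was the single call among 15 BMP genes tested (median -0.38, -0.14 rescaled), falling from 19.9, 19.8 and 15.7 TPM to 3.74, 8.802 and 3.001 TPM (-1.76). Of 16 WNT genes tested 3 rose and 3 fell (6 and 3 rescaled), with a median of 0.22 (0.48 rescaled). The receptor gene *Fzd7* rose (1.07) but lost its call without day 0 replicate 3 (0.97). With *Lef1* and *Sfrp2* it stood against falls of *Sp5* (-1.24), *Notum*, a secreted WNT deacylase gene (-1.403), and *Sfrp1* (44.5, 52.8 and 51.5 TPM to 11.7, 18.3 and 18.1 TPM, -1.59).

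Germ layer markers were mostly low on both days. Of 24 primitive streak and early mesoderm genes 10 were tested and 12 stayed under 1 TPM in all 6 libraries. The median was -0.35 (-0.16 rescaled), with 2 genes called higher and 2 lower. *T* (brachyury), the defining streak gene, was at 0.285, 0.362 and 0.375 TPM on day 0 and 0.315, 2.72 and 0.624 TPM on day 4. Only day 4 replicate 2 exceeded 1 TPM, and the difference did not pass (0.57, adjusted p = 0.234). *Eomes*, a T-box gene of streak and endoderm, stayed under the fold threshold at 2.98, 3.78 and 2.06 TPM on day 0 and 5.32, 6.33 and 4.52 TPM on day 4 (0.71, adjusted p = 0.0272).

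Beside *Fgf8*, the Notch ligand gene *Dll1* was called higher (1.13), a call that was lost without day 0 replicate 2, day 0 replicate 3 or day 4 replicate 3 (0.86 to 1.06). *Cdx1*, a homeobox gene, fell from 2.47, 2.21 and 2.19 TPM to 0.261, 0.108 and 0.285 TPM (-1.43), as did *Sp5*. The summed TPM of the list were 26.5, 22.4 and 23.1 on day 0 and 23.04, 35.9 and 28.8 on day 4, and the days overlapped.

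For primitive and visceral endoderm, the lineage regulators *Gata4*, *Gata6*, *Sox17* and *Sox7* had group means under 1 TPM on both days and were not tested. Of 22 genes tested, 1 was called higher and 4 lower (median -0.08, 0.11 rescaled). The rise was *Krt18*, and the 4 falls were all basement membrane or matrix genes. *Lama1*, the laminin alpha-1 gene, fell from 18.6, 14.96 and 14.5 TPM to 2.83, 1.44 and 0.646 TPM (-2.77 ± 0.28 SE, adjusted p = 0.000588), and *Nid1* (nidogen) from 54.9, 45.7 and 42.2 TPM to 14.1, 10.7 and 9.66 TPM (-1.97). *Lamc1* (-1.02, -0.75 rescaled) and *Sparc* (-1.05, -0.78 rescaled) were called on the TPM scale only. The call of *Lamc1* was lost without day 0 replicate 1 or day 4 replicate 3 (-0.95 to -0.97) and that of *Sparc* without day 0 replicate 1 (-0.95).

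Transcripts of secreted visceral endoderm proteins were highest in a single library. *Afp* (alpha-fetoprotein) was at 0, 0 and 0.0331 TPM on day 0 and 14.4, 0 and 0.9748 TPM on day 4, and *Ttr* (transthyretin) at 0.0767, 0 and 0 TPM on day 0 and 7.099, 0.217 and 0.285 TPM on day 4. *Apoa1*, an apolipoprotein gene, followed with 5.78, 0.595 and 0.34 TPM on day 4. Replicate 1 was thus the highest of the day 4 libraries for all 3 genes, none of which was called (adjusted p = 0.157, 0.177 and 0.23).

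Neural, blood and cardiac lists had 8, 7 and 6 genes tested, and in each 1 was called higher (1.65% of all genes) and 3 lower (4.84%), with medians of 0.00372, -0.77 and -0.92. In the neural list *Sox3* rose, while *Tubb3*, a neuronal tubulin gene (50.8, 61.8 and 77.3 TPM to 17.2, 27.2 and 30.7 TPM, -1.32), the adhesion gene *Ncam1* (-1.92) and *Sox1* (-1.09, -0.95 rescaled) fell. *Sox1* lost its call without day 4 replicate 1 (-0.92). *Pax6* did not pass, at 4.61, 5.701 and 4.61 TPM on day 0 and 3.92, 5.14 and 6.51 TPM on day 4.

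In the blood and endothelial list the receptor gene *Tek* (-1.38), *Sox18* (-1.25) and *Gata2* (-1.18, -0.99 rescaled) fell. The globin genes *Hba-x*, *Hbb-bh1* and *Hbb-y* were listed at 0 in all 6 libraries. *Lmo2* rose by 1.05. The call of *Gata2* was lost without day 0 replicate 1 or day 4 replicate 1 (-0.93 to -0.94), and that of *Lmo2* without day 0 replicate 2, day 4 replicate 2 or day 4 replicate 3 (0.91 to 0.94). Among cardiac genes the myosin light chain gene *Myl3* rose (2.89, 2.86 and 3.21 TPM to 10.5, 13.2 and 19.8 TPM, 1.92), and the muscle methyltransferase gene *Smyd1* (-1.23), *Myl4* (-1.12, -0.94 rescaled) and *Tnnt2* (-1.099, -0.96 rescaled) fell from levels of at most 4 TPM. *Tnnt2* lost its call without day 0 replicate 1 or day 4 replicate 1 (-0.95 to -0.97). *Nkx2-5*, *Tbx5* and *Hand2*, which define cardiac progenitors, did not pass 1.1 TPM in any library.

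Some epithelial genes rose. Of 17 epithelial-mesenchymal genes tested (median 0.08, 0.35 rescaled) 4 were called higher, all of them epithelial: *Epcam* (75.9, 64.6 and 55.4 TPM on day 0 and 200, 159.8 and 165 TPM on day 4, 1.41), the keratin gene *Krt18* (15.4, 15.2 and 10.6 TPM to 100.1, 55.6 and 72.4 TPM, 2.36) and the tight junction genes *Cldn6* (23.1, 21.03 and 12.6 TPM to 119, 86.8 and 81.7 TPM, 2.31) and *Cldn7* (1.64). The 2 genes called lower were mesenchymal: *Vim* (vimentin; 43.7, 45.5 and 37.98 TPM to 15.3, 20.03 and 13.02 TPM, -1.36) and *Fn1* (fibronectin; -1.03, -0.75 rescaled). *Fn1* lost its call without day 0 replicate 1, day 0 replicate 2, day 4 replicate 2 or day 4 replicate 3 (-0.88 to -0.98). The E-cadherin gene *Cdh1* did not pass, at 151, 155 and 125 TPM on day 0 and 156, 152 and 149.98 TPM on day 4. Of 7 definitive endoderm genes tested *Epcam* was the single call.

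Fibroblast markers were close to absent on both days. Of 15 listed genes 10 stayed under 1 TPM in all 6 libraries, *Lum* and *Postn* were listed at 0 throughout, and *Col1a1* did not exceed 0.45 TPM. The summed TPM of the list were 30.1 to 33.9 on day 0 and 22.2 to 34.8 on day 4, of which *Thy1* gave between 12.5 and 17.8 TPM. Its 1 call, *Col5a1* (-1.02, -0.82 rescaled), was lost without day 0 replicate 3 or day 4 replicate 1 (-0.92 to -0.97). Among 8 trophectoderm genes tested *Krt18* rose, and *Tfap2c* (-1.005, -0.74 rescaled) and *Krt19* (-1.01, -0.76 rescaled) fell on the TPM scale only. *Tfap2c* lost its call without day 0 replicate 2, day 4 replicate 2 or day 4 replicate 3 (-0.93 to -0.98), *Krt19* without day 0 replicate 1, day 0 replicate 2, day 4 replicate 2 or day 4 replicate 3 (-0.85 to -0.93), and *Cdx2*, the defining gene, stayed under 0.3 TPM.

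Some amino acid stress genes, the targets of the transcription factor ATF4, fell. Of 19 tested 7 were called lower (4.84% of all genes were) and 1 higher (1.65%), with a median of -0.86 (-0.60 rescaled). The regulator genes *Trib3* (44.2, 48.97 and 43.3 TPM to 13.2, 12.02 and 14.4 TPM, -1.71) and *Chac1* (26.1, 33.9 and 30.01 TPM to 7.35, 9.02 and 7.71 TPM, -1.78) fell on both scales. The enzyme genes *Asns* (-1.14), *Shmt2* (-1.26), *Mthfd2* (-1.19) and *Psat1* (-1.01), which serve asparagine, one-carbon and serine synthesis, and the cytokine gene *Gdf15* (-1.17) were called on the TPM scale only, with rescaled values of -0.86, -0.98, -0.91, -0.73 and -0.92. *Psat1* lost its call without day 0 replicate 3 or day 4 replicate 1 (-0.94 to -0.96), and *Gdf15* without day 4 replicate 1 (-0.99). *Ddit4*, a stress-induced inhibitor of mTORC1, went up instead, from 200.2, 140.5 and 113 TPM to 430.4, 505 and 504 TPM (1.696).

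Of 26 glycolysis and hypoxia genes, 4 were called lower and 1 higher (median 0.10, 0.39 rescaled). The hexokinase gene *Hk2* fell on both scales (-1.32), while *Hk1* (-1.01), *Pfkp* (-1.14) and *Vegfa* (-1.02) lost their calls after rescaling (-0.74, -0.86 and -0.74). *Hk1* also lost it without day 0 replicate 1, day 0 replicate 2 or day 4 replicate 2 (-0.91 to -0.93), *Pfkp* without day 4 replicate 2 (-0.99) and *Vegfa* without day 0 replicate 1, day 0 replicate 2, day 4 replicate 2 or day 4 replicate 3 (-0.85 to -0.99). The peptide hormone gene *Adm* rose from 1.18, 0.264 and 0.265 TPM to 8.68, 5.16 and 6.85 TPM (2.36).

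Among 21 imprinted genes tested 3 rose, *Nnat* (4.51, 2.81 and 3.61 TPM to 21.6, 23.6 and 17.4 TPM, 2.24), *Snrpn* (1.45) and *Magel2* (1.01), and the growth inhibitor gene *Grb10* fell (-1.29). *Magel2* lost its call without day 0 replicate 3 or day 4 replicate 2 (0.76 to 0.96). No gene was called among 24 of cholesterol synthesis (median -0.36, -0.08 rescaled), 26 of the cell cycle (median -0.18, 0.10 rescaled) or 3 tested of the two-cell-like state. Of 16 p53 targets *Perp* was called (-1.11, -0.87 rescaled). It lost that call without day 0 replicate 2 or day 4 replicate 1 (-0.79 to -1.05). Of 14 germ cell genes *Prdm14* and *Tfap2c* were called.

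The genes with the largest rises, of those whose libraries did not overlap and that reached a mean of 5 TPM, were led by *Car4* and *Fgf5*. *Enpp2* (autotaxin), a secreted phospholipase gene, rose from 0.296, 0.417 and 0.618 TPM to 22.96, 17.5 and 13.5 TPM (3.69). *Pim2*, a serine/threonine kinase gene, measured 16.5, 13.7 and 16.3 TPM on day 0 and 186, 231 and 136 TPM on day 4 (3.46 ± 0.18 SE, adjusted p = 5.67e-05), and the chemokine gene *Cxcl12* 0.844, 0.516 and 0.684 TPM on day 0 and 27.1, 13.9 and 12.1 TPM on day 4 (3.395). *Psmb8*, an immunoproteasome subunit gene (3.21), *Oasl2*, an interferon-induced gene (2.89), *Vrtn* (vertnin, 3.16), the small GTPase gene *Rab25* (2.71), *Mir670hg* (3.34) and *2610528J11Rik* (3.17) followed, beside *Otx2* and *Dnmt3b*.

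A pair of the 15 rested on uneven day 0 values. *Exosc6*, an RNA exosome subunit gene, was listed at 0 in 2 day 0 libraries and at 5.57 TPM in the other, against 15.7, 27.5 and 30.5 TPM on day 4 (3.72). *Gm10197* was likewise at 0, 0 and 11.7 TPM and then at 13.97, 11.7 and 19.3 TPM (2.75 ± 0.87 SE, adjusted p = 0.0392). Its call was lost without day 0 replicate 1, day 0 replicate 2, day 4 replicate 1, day 4 replicate 2 or day 4 replicate 3 (adjusted p = 0.0696 to 0.123).

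The largest falls began with *Socs3*. *Mras*, a Ras-family GTPase gene, fell from 76.4, 65.6 and 65.7 TPM to 2.79, 3.85 and 2.56 TPM (-4.12 ± 0.15 SE, adjusted p = 1.21e-05), and the serpin gene *Serpinb6c* from 34.3, 29.3 and 29.8 TPM to 1.61, 1.299 and 1.72 TPM (-3.66). *Pcolce*, a procollagen-processing enhancer gene (118, 102 and 87.03 TPM to 10.6, 12.8 and 16.5 TPM, -2.87), *Krt42*, a keratin gene (-2.59), the transglutaminase gene *Tgm1* (-2.81), *Emp1*, an epithelial membrane protein gene (-2.898), and *Napsa*, an aspartic protease gene (-2.67), were among them. So was the connexin gene *Gjb5* (-2.64), with *Klf4*, *Inhbb*, *Bcl3* and *Lama1*. The values of *Gm27624* spread most, at 154, 19.5 and 46.7 TPM on day 0 against 2.53, 2.85 and 0.854 TPM on day 4 (-4.19, adjusted p = 0.00282).

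The same interval was next compared between lines, to ask where the change in ΔK9.1 differed from that in wild-type cells. Fitted alone on their own 6 libraries, E14Tg2a had 541 genes called higher and 644 lower of 14379 tested, and ΔK9.2 406 and 805 of 14370. These counts come from separate fits, and their difference from the 232 and 682 of ΔK9.1 was not tested as such. The difference of the changes was tested gene by gene on the 18 libraries of days 0 and 4, without a fold threshold.

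Against E14Tg2a, 8 of 15049 genes (0.0532%) had a higher and 30 (0.199%) a lower log2 change in ΔK9.1 at an adjusted p under 0.05. Same-numbered libraries of the lines deviated together, and blocking on replicate number let 45 (0.299%) and 360 (2.39%) genes pass. With rescaling 8 (0.0534%) and 3 (0.02%) passed, of which 9 were among the 38, and rescaling with the block gave 47 and 38. The counts without the block also moved with single libraries. They ranged from 1 to 20 and from 2 to 276, highest without E14Tg2a day 0 replicate 1, and left the range of 1.5 times the full count for 14 of the 18 libraries in each direction. Against ΔK9.2 no gene passed in either direction (smallest adjusted p = 0.0601 with limma, 1053 genes at an unadjusted p under 0.05), and 2 higher (0.0133%) and 3 lower (0.0199%) passed with the block.

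With the block and on the TPM scale, *Tdh* was the only gene of the naive, LIF-STAT3, formative or core lists whose change differed from that in E14Tg2a. With rescaling added, *Utf1*, of the core and formative lists, passed as well. With the block but without E14Tg2a day 0 replicate 1, 3 of 22 naive genes passed as higher (0.599% of all genes did) and 5 of 24 formative genes as lower (6.71%). *Nanog* changed by -1.22 in ΔK9.1, -0.83 in E14Tg2a and -1.01 in ΔK9.2. The difference from E14Tg2a was -0.39 (unadjusted 95% interval -0.64 to -0.14), with an adjusted p of 0.158 without and 0.0531 with the block. These are changes from each line's own day 0 and do not compare *Nanog* levels between lines. By RT-qPCR, the paper reports slightly raised *Nanog* mRNA in undifferentiated ΔK9 cells and an attenuated fall in EBs. Of the neighbours of *Nanog*, *Slc2a3* changed by 0.55 in E14Tg2a against -0.22 in ΔK9.1. On the TPM scale this difference passed only with the block (adjusted p = 0.102 without, 0.0194 with). *Klf4* changed by -3.71, -3.75 and -3.79 in the same order, and *Socs3* by -4.28, -4.11 and -4.12. For *Esrrb* the values were -1.58, -1.82 and -1.71.

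Of the formative genes, *Otx2* changed by 2.74 in ΔK9.1, 2.94 in E14Tg2a and 2.58 in ΔK9.2, and *Dnmt3b* by 2.73, 3.05 and 2.48. The gap was wider for *Zic2*, at 1.42, 2.75 and 2.03 (difference from E14Tg2a -1.33, 95% interval -2.15 to -0.51, adjusted p = 0.138 without and 0.0552 with the block). A missed threshold does not show that the lines changed alike.

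Endoderm and streak genes were also set against E14Tg2a. Of 31 genes of the primitive and visceral endoderm list that could be tested between lines, 11 passed as lower with the replicate block and none as higher (2.39% of all genes passed as lower). None passed without the block, and 2 of the 11, *Ttr* and *Apob*, also passed with block and rescaling. With the block, 5 of 13 definitive endoderm genes also passed as lower and 1 as higher, and 3 of 12 primitive streak genes, all 3 in both lists, passed as lower. With block and rescaling 1 definitive endoderm gene passed in each direction and no streak gene. Only 22 of the 31, 7 of the 13 and 10 of the 12 genes passed the filter on the ΔK9.1 libraries. The others, *Apob* among them, entered through the other lines, where they were higher, so these counts are descriptions only.

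*Afp* on day 4 was at 14.4, 0 and 0.9748 TPM in ΔK9.1, 255, 20.2 and 76.7 TPM in E14Tg2a and 42.5, 2.75 and 3.75 TPM in ΔK9.2. *Ttr* was at 7.099, 0.217 and 0.285 TPM, 125, 20.6 and 58.98 TPM and 23.9, 2.33 and 3.096 TPM in the same order, a difference from E14Tg2a of -4.34 (adjusted p = 0.0205 with the block, 0.094 without). *Apoa1* was at 5.78, 0.595 and 0.34 TPM, 125, 17.3 and 39.4 TPM and 23.8, 2.17 and 1.56 TPM. For these 3 secreted products no ΔK9.1 library reached the lowest E14Tg2a library, and in each line replicate 1 was the highest.

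The apolipoprotein gene *Apom* (difference -3.02, adjusted p = 0.0334 with the block) and the retinol carrier gene *Rbp4* (-3.65, 0.0319) behaved alike. So did *Amn* (amnionless, a subunit of an endocytic receptor, -2.82, 0.0362), the protease inhibitor gene *Spink1* (-3.46, 0.0386) and *Cited1* (-2.96, 0.0411). *Apob*, another apolipoprotein gene, had a difference of -3.44, a description only, since it met the minimum only outside ΔK9.1. *Hnf4a*, the nuclear receptor gene that controls this programme, was on day 4 at 1.73, 0.498 and 0.493 TPM in ΔK9.1 against 13.9, 3.35 and 7.21 TPM in E14Tg2a (-1.88, 0.0339). In ΔK9.1 its mean was higher on day 0, where it met the 1 TPM minimum, than on day 4, although the days overlapped. *Afp* and *Ttr* were close to absent on day 0 there. *Lama1*, which fell in ΔK9.1, changed by 0.33 in E14Tg2a (-3.103, 0.0445). Summed over the list, ΔK9.1 had 1229, 1053 and 1107 TPM on day 0 and 1285, 1103 and 1559 TPM on day 4. E14Tg2a had 2031, 994 and 976 TPM on day 0 and 5076, 1536 and 2899 TPM on day 4, so that the cultures of E14Tg2a spread widely. E14Tg2a day 0 replicate 1 was also the highest of its group for the summed fibroblast markers (61.3 TPM against 15.4 and 13.02) and streak markers (35.2 against 12.7 and 11.48). Without that library, 18 of the 31 endoderm genes passed as lower with the block (6.71% of all genes did) and none as higher (0.599%), all 11 that passed with it among them, and 1 without the block. The part of these markers in the differences was not tested. No gene of the list differed from ΔK9.2 at an adjusted p under 0.05. These genes were singled out after their values were seen.

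Where the difference passed without the block, the day 0 level of ΔK9.1 often stood apart. *Tdh*, the threonine dehydrogenase gene on which mouse ESCs depend, fell from 165, 145 and 145 TPM to 81.3, 87.4 and 90.7 TPM in ΔK9.1 and from 235, 286 and 254 TPM to 73.2, 53.97 and 49.8 TPM in E14Tg2a, so that its change was 1.33 ± 0.23 (SE) smaller in ΔK9.1 (adjusted p = 0.0347). *Myc* fell in E14Tg2a from 23.8, 19.6 and 19.02 TPM to 6.803, 9.295 and 6.801 TPM and in ΔK9.2 from 17.1, 18.5 and 14.05 TPM to 7.42, 6.05 and 4.39 TPM, but in ΔK9.1 was already near 7 TPM on day 0. The difference in its change was 1.32 (adjusted p = 0.0412) from E14Tg2a. From ΔK9.2 it was 1.33 (adjusted p = 0.199, and 0.0359 with the block).

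In the other direction *Tmc7*, a transmembrane channel-like gene, went from 8.35, 7.33 and 7.06 TPM to 5.01, 4.47 and 5.09 TPM in ΔK9.1 and from 2.46, 1.94 and 2.23 TPM to 6.06, 4.39 and 5.41 TPM in E14Tg2a, with a difference of -1.51 (adjusted p = 0.00753). The glutathione transferase gene *Gstt1* showed the same pattern, at 17.5, 18.2 and 16.5 TPM and 8.65, 9.59 and 9.47 TPM against 6.19, 6.54 and 7.703 TPM and 12.1, 11.2 and 11.2 TPM (-1.52, adjusted p = 0.0123). In both genes the lines lay farther apart on day 0 than on day 4. On day 4 all *Gstt1* values of ΔK9.1 were below those of E14Tg2a, the reverse of day 0. *Sfrp5*, a secreted WNT modulator gene, fell below 0.4 TPM in ΔK9.1 and reached 5.12, 1.93 and 3.201 TPM in E14Tg2a (-2.13, adjusted p = 0.0135). *Phyhd1*, another gene of the 5 smallest adjusted p, had a difference of -1.47 (adjusted p = 0.0198), and *Eml1*, a microtubule-associated protein gene, one of -1.37 (adjusted p = 0.0276). After rescaling *Gstt1* (adjusted p = 0.0551), *Phyhd1* (0.0764) and *Eml1* (0.0551) did not pass, whereas *Tmc7* and *Sfrp5* did. With the block added to rescaling, all of them passed. When each of the 18 libraries was left out in turn, *Tmc7* always passed, with differences of -1.62 to -1.42. *Gstt1* did not pass without ΔK9.1 day 0 replicate 2 (adjusted p = 0.0505), nor *Sfrp5* without ΔK9.1 day 4 replicate 2 or day 0 replicate 3 (up to 0.0629). *Phyhd1* lost its place for 4 of the 18, *Eml1* for 9, *Tdh* for 11 and *Myc* for 14, with unchanged direction.

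The smallest adjusted p against ΔK9.2, 0.0601 (0.0359 with the block), belonged to *Pdpn* (podoplanin) and the calcium-binding protein gene *S100a13*. *S100a13* was at 20.9, 21.2 and 18.9 TPM on day 0 and 7.72, 6.51 and 7.32 TPM on day 4 in ΔK9.1, and at 6.05, 7.91 and 9.02 TPM and 11.7, 9.51 and 9.43 TPM in ΔK9.2. The difference in its change was -1.76 (95% interval -2.34 to -1.19). That of *Pdpn* was -1.06 (95% interval -1.398 to -0.72). With rescaling added to the block, no gene passed as lower against ΔK9.2, so neither of these did.

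**Figure D4:**
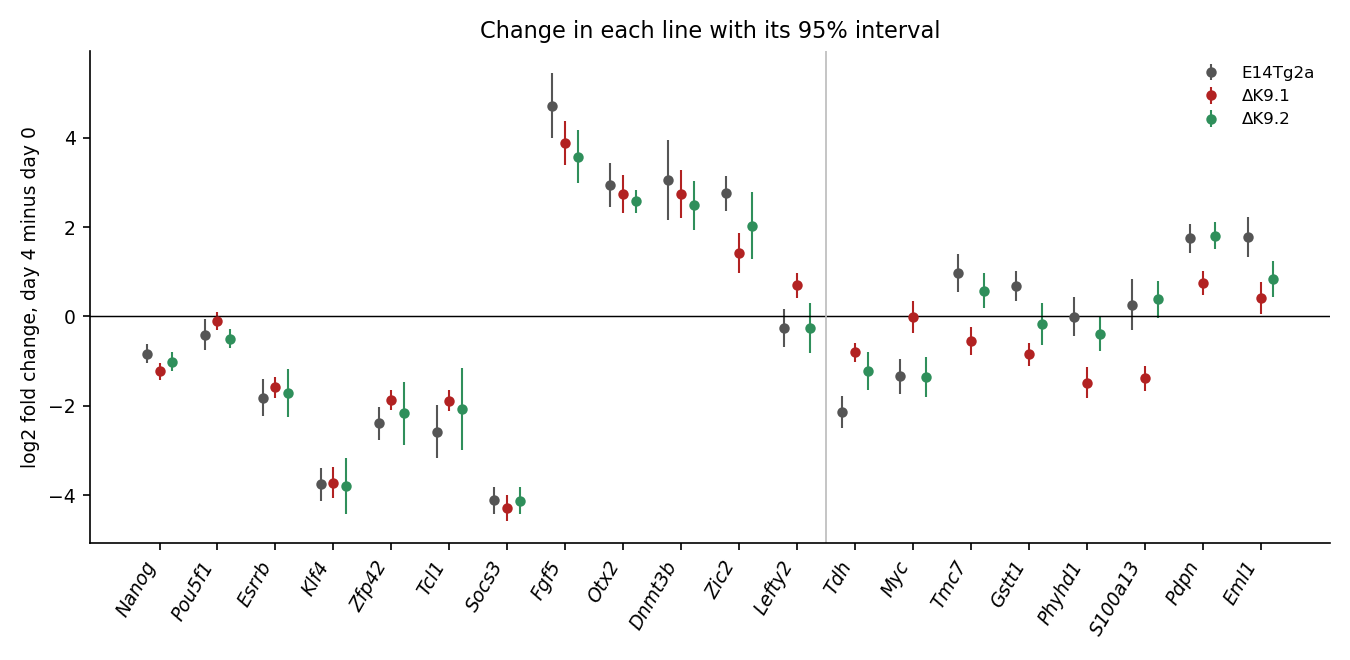
Log2 fold change from day 0 to day 4 with its 95% interval from each line's own 6 libraries (grey, E14Tg2a; red, ΔK9.1; green, ΔK9.2). Left of the vertical line are genes of the lists, where the lines lie close for *Klf4* and *Socs3*. Right of it are genes named for a difference between lines, such as *Myc* (-0.02 in ΔK9.1 and -1.34 in E14Tg2a).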

How the data were processed

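RNA was extracted from cells of each line and day, and poly-A enriched, strand-specific libraries were sequenced. Per the labels, the authors aligned reads to mm10 with STAR and quantified genes with RSEM. The deposited values used here are TPM, computed by the authors within each library. Tool versions and the annotation are not given in the sources used here. The study gives only an approximate read number for its libraries, TPM do not keep the depth of each, and precision was taken from replicates (median SD 0.15 on day 0 and 0.18 on day 4, log2 scale). The authors' own fold changes and FDR columns (DESeq2) were not used. The listed TPM of the 6 libraries sum to between 995414 and 997298.

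Genes that averaged 1 TPM or more on 1 of the days were tested on log2(TPM + 1) with limma 3.58.1 (lmFit, then eBayes with an intensity trend) in R 4.3.3 on the 6 ΔK9.1 libraries, with Benjamini-Hochberg adjustment. Fold changes on this scale understate changes of genes with few TPM. A fit on the clone's own libraries was chosen because the comparison lies within it. Differences between lines were tested on the 18 libraries of days 0 and 4 (15049 genes).

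Deviations from group means were compared between same-numbered libraries. Across lines on the same day their correlations were all positive (0.127 to 0.284 between ΔK9.1 and E14Tg2a, 0.153 to 0.338 between ΔK9.1 and ΔK9.2), and the study differentiated the lines in parallel, so the numbers can be read as pairs between lines. Differences between lines were fitted without the block, and values with the block are given where it changed whether a difference passed. Between day 0 and day 4 of ΔK9.1 they were 0.191, 0.0478 and 0.177, and the numbers were not taken as pairs.

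Genes were named by rule: *Nanog* and its neighbours, called members of the lists and core regulators, the 15 largest changes in each direction among called genes with libraries apart and a mean of at least 5 TPM, and the 5 smallest adjusted p in each direction between lines. Genes named beyond this rule (*Afp*, *Ttr*, *Apoa1*, *Cdh1*, *Pax6*, the visceral endoderm genes that differed between lines and the defining markers at low levels) and the families by symbol were chosen after their values were seen. Some genes that the rule names are not reported here. Members and lists were chosen with earlier results of these data known. Alternatives were another pseudocount (0.1), another minimum (5 TPM, or none), median-ratio rescaling, the replicate block, other sets of libraries and leaving out each library. Removal of ribosomal protein genes, the block with rescaling, and the block without E14Tg2a day 0 replicate 1 were added after the data were seen. Positions come from GENCODE M21 and reference windows from RefSeq, both on GRCm38 (mm10). Figures were drawn with matplotlib.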

Additional observations from a re-analysis of the deposited data

Results flagged for a closer look

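14 named genes had a change from day 0 to day 4 that differed between ΔK9.1 and E14Tg2a by the test of the difference itself (limma on 18 libraries, adjusted p under 0.05). All values below are log2 change in ΔK9.1 minus log2 change in E14Tg2a. Positive differences were 1.33 for *Tdh*, 1.32 for *Myc*, 1.32 for *Mup6*, a major urinary protein gene, 1.65 for the noncoding gene *Gm26917*, 1.18 for the pseudogene *Smarca5-ps* and 1.32 for *Gm11657*. Negative ones were -1.51 for *Tmc7*, -1.52 for *Gstt1*, -2.13 for *Sfrp5*, -1.47 for *Phyhd1*, -1.37 for *Eml1*, -0.995 for *Pdpn* and -1.65 for *S100a13*. On the 12 libraries of the 2 lines only *Tdh*, *Gm26448*, *Tmc7* and *Gstt1* of the 14 passed, the others having an adjusted p from 0.0526 to 0.111. With a pseudocount of 0.1 *Myc*, *Smarca5-ps* and *Gm11657* did not pass (0.0527, 0.0977 and 0.127). In a fit on all 33 libraries *Myc*, *Mup6*, *Pdpn*, *Gstt1* and *Eml1* did not (0.317, 0.426, 0.123, 0.17 and 0.0509), and *Gm11657*, *Gstt1*, *Phyhd1*, *Eml1*, *Pdpn* and *S100a13* did not pass after rescaling. With the replicate block all 14 passed (adjusted p up to 0.0206). *Gm26448* had a fitted value of 7.13, which is no fold, since it was listed at 0 in all day 0 libraries of ΔK9.1 and all day 4 libraries of E14Tg2a.

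For several of these genes the day 0 levels of the lines lay apart and the day 4 levels close. *S100a13* began at 20.9, 21.2 and 18.9 TPM in ΔK9.1 against 6.604, 4.93 and 4.59 TPM in E14Tg2a, and was at 7.72, 6.51 and 7.32 TPM against 9.74, 5.34 and 5.44 TPM on day 4. *Pdpn* was at 12.7, 14.5 and 12.2 TPM and 6.65, 6.95 and 5.93 TPM on day 0, and at 22.7, 21.2 and 24.3 TPM and 25.8, 21.2 and 25.7 TPM on day 4. *Mup6* was at 4.47, 3.65 and 2.98 TPM and 9.495, 9.35 and 8.75 TPM on day 0, and at 24.5, 20.9 and 13.95 TPM and 14.5, 20.9 and 15.4 TPM on day 4. *Smarca5-ps* was at 1.096, 0.978 and 0.993 TPM and 3.603, 3.49 and 3.19 TPM on day 0 and under 0.65 TPM in all libraries of both lines on day 4. *Eml1* differed on day 4, at 4.47, 5.16 and 4.37 TPM in ΔK9.1 and 13.04, 8.82 and 9.05 TPM in E14Tg2a. *Gm11657* stayed under 0.3 TPM in every ΔK9.1 library, and was at 1.82, 1.29 and 2.11 TPM in E14Tg2a on day 0. It met the minimum of 1 TPM only outside ΔK9.1, so its difference is a description. Pseudogenes and predicted genes can share reads with near-identical copies, so their values are uncertain. Leaving out each of the 18 libraries in turn kept every direction, and *Gm26448* passed in all 18. *Gm26917* lost its place for 10, *Smarca5-ps* and *Gm11657* for 12 each, *Mup6* for 14, and *Pdpn* and *S100a13* for 9 each.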

How the results depend on the processing

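The 6 libraries come from 1 clone, and no counts enter the tests. Counts of calls in ΔK9.1 were 232 higher and 682 lower. They were 372 and 1123 with a pseudocount of 0.1, and 392 and 365 with median-ratio rescaling (399 and 370 with the replicate block added). Other settings stayed within 1.5 times, among them the replicate block alone (239 and 685, 912 of the 914 calls shared), and TPM without ribosomal protein genes gave 345 and 641. Leaving out each library gave 227 to 277 higher and 631 to 815 lower. Every ΔK9.1 library correlated best with its own number on the other day, a hint from the data only.

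Rescaling reversed the sign of genes that were not called: *Pou5f1* (0.183), *Slc2a3* (0.0631), *Dnmt3l* (0.0487), *Myc* (0.223) and *Nodal* (0.00361), with the same values when the block was added. Without ribosomal protein genes *Pou5f1* was 0.024 and *Myc* 0.0885. *Myc* ranged from -0.0981 to 0.115 when each library was left out, and was above 0 without day 0 replicate 2 or day 4 replicate 3. Without ribosomal protein genes *Nr0b1*, *Lamc1*, *Sparc*, *Tfap2c*, *Krt19*, *Fn1*, *Hk1*, *Vegfa*, *Psat1* and the mitochondrially encoded *mt-Nd6* also lost their calls. The lower call of *mt-Nd6* was lost on the rescaled scale as well. On all 33 libraries *Dll1*, *Sparc*, *Sox1*, *Gata2*, *Lmo2*, *Krt19*, *Fn1* and *Gm10197* lost theirs. With no minimum *Dll1*, *Krt19*, *mt-Nd6* and *Gm10197* lost theirs, and on the 18 libraries of days 0 and 4 *Sparc*, *Krt19* and *Gm10197*. The pseudocount and the block changed no day 4 against day 0 call of a named gene in ΔK9.1, and the cause of the losses was not tested.

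For the change in ΔK9.1 minus that in E14Tg2a, 8 genes were higher and 30 lower. A pseudocount of 0.1 gave 4 higher, rescaling 3 lower, the replicate block 45 and 360, the block with rescaling 47 higher, the block without E14Tg2a day 0 replicate 1 90 and 1008, removal of ribosomal protein genes 11 lower, and the 12 libraries of the 2 lines 2 and 5. Leaving out each library gave 1 to 20 higher and 2 to 276 lower. Counts within 1.5 times of both full counts came only without E14Tg2a day 4 replicate 2 (9 and 42), ΔK9.2 day 0 replicate 1 (6 and 22), ΔK9.2 day 4 replicate 1 (10 and 45) and ΔK9.2 day 4 replicate 3 (8 and 28). For the change in ΔK9.1 minus that in ΔK9.2, 0 genes passed, against 2 lower with a minimum of 5 TPM, 2 higher and 3 lower with the replicate block, 1 higher with the block and rescaling, 1 lower on the 12 libraries of the 2 lines, and 0 to 1 in either direction when each library was left out.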

Other observations

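Most genes with ribosomal protein symbols were higher on day 4 by less than the fold threshold. Of 86 tested, 80 had a positive log2 change, and in 58 all day 4 libraries were above all day 0 libraries (9.57% of all genes were). Their median was 0.30, beside -0.26 for all genes, and their share of the TPM was also higher on day 4 in E14Tg2a (24.1% to 26.1% on day 0, 28.1% to 29.3% on day 4) and in ΔK9.2 (24.4% to 25.9%, then 30.3% to 31.7%). *Rpl10l*, a copy of *Rpl10* without introns, was the single gene of the family called, and it went the other way, from 128, 114 and 113 TPM to 47.1, 50.2 and 59.7 TPM (-1.17, -0.89 rescaled and then not called). Reads of near-identical ribosomal protein copies may have been split between them.

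Of 7 claudin genes tested 3 rose, *Cldn3* (1.19) beside *Cldn6* and *Cldn7*, and none was called lower (1.65% and 4.84% of all genes).

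Genes of antigen processing also moved in both directions. Of 18 tested genes of the immunoproteasome, peptide transport and MHC class I, 4 were called higher and 2 lower (6 and 1 rescaled, beside 1.65% and 4.84% of all genes, or 2.79% and 2.6% rescaled). *Psmb8* rose from 0.11, 0.275 and 0.0552 TPM to 16.4, 7.46 and 6.93 TPM, and *H2-Q2* (1.65), *H2-Q6* (1.25) and *H2-T22* (1.19) rose, while *H2-M5* (-1.98) and *H2-Q10* (-1.14, -0.95 rescaled and then not called) fell. *H2* genes are close copies of each other, so their values are uncertain. Of 25 interferon-linked genes *Bst2* (158, 132 and 122 TPM to 344, 277 and 376 TPM, 1.27), *Irf1* (12.7, 11.9 and 9.45 TPM to 57.3, 29.5 and 26.9 TPM, 1.58) and *Oasl2* rose and none was called lower (1.65% and 4.84% of all genes), while 19 had a log2 change below 0 and the list median was -0.30. In *Psmb8*, *Oasl2* and *Irf1* day 4 replicate 1 was the highest library, as it was for *Afp* and *Ttr* but also for *Dnmt3b* and *Otx2*. *Bst2* was highest in day 4 replicate 3. These families were grouped after their values were seen, and no list was tested.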
